A study of Arabidopsis thaliana with 8 samples.

Results

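The 4 arrays compared here measured the transcripts of Arabidopsis thaliana seedlings that had never seen light, with and without lincomycin in the medium. They were chosen by their titles, as the 2 arrays of untreated seedlings in darkness and the 2 of lincomycin-treated seedlings in darkness, out of 8 arrays in all. Total RNA came from whole wild-type Col-0 seedlings, 4 days old, raised in darkness at 21 °C on Murashige and Skoog medium with 1% sucrose. The dark group had no lincomycin and the dark lincomycin group had it in the medium, at 220 µg/ml in one label field and 200 µg/ml in another; which dose was used is not known. The other 4 arrays, the red group and the red lincomycin group, came from seedlings of the same line and media that received 30 min of red light before collection. They share no array with the comparison in darkness, but all 8 arrays set the spread behind its p-values. The values of the red groups are given beside that comparison. Nothing in the labels says that replicates came from separate cultures, so p-values speak only of the variation among these arrays, which may be technical.

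Lincomycin is an antibiotic that binds the bacterial type of ribosome, which plastids also carry, and it blocks protein synthesis there. Most proteins of the photosynthetic complexes are encoded in the nucleus and imported, whereas core subunits, part of the plastid's own ribosome and one of its RNA polymerases are encoded in the plastid genome. Seedlings kept in darkness hold etioplasts, plastids without chlorophyll that are poised for greening. The state of the plastid is known to affect nuclear photosynthesis genes, and lincomycin is a common means to study that signalling.

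Values are log2 intensities of Affymetrix probe sets, and a change is the mean of the dark lincomycin group minus that of the dark group, with the standard error (SE) of the limma fit and 2 arrays a group. A probe set was called at an adjusted p under 0.05 over all 22746 probe sets tested. Exactly 1 gene was listed for 13513 of these probe sets and none for 8730 (38.4%), which are counted but unnamed here. A gene of a list counts as measured where a probe set was listed for it alone. A gene not counted as measured may still have a probe set among the others. Gene lists and their members were chosen with earlier results of these data known, so counts within lists are descriptions only. Levels of different probe sets are not comparable. A fall in a transcript of a whole seedling can be fewer cells of a type or less RNA per cell, and these cannot be told apart.

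The untreated dark arrays differed more from each other than the treated ones. Between the dark replicates 1549 probe sets differed over 2-fold, against 40 between those on lincomycin; the numbers after red light were 797 without lincomycin and 9 with it. Replicate 1 of the dark group stood apart: its ratio of 3′ to 5′ signal, a measure of RNA integrity, was the highest of the 8 arrays in all 6 pairs of control probe sets. One actin pair gave 41.2 on that array and 2.24 to 3.67 on the other 7, and one GAPDH pair gave 23.2 against 2.64 to 5.47. Changes without that array are therefore given beside the results, and the part of RNA integrity in them was not tested. Among markers of tissues, the root hair expansins EXPA7 and EXPA18 changed by 1.03 (adjusted p = 0.0927) and 0.59 in darkness. After red light both changes were below 0, with a median of -0.47. PORB, a protochlorophyllide oxidoreductase, had levels of 9.92 to 11.6 on the 8 arrays.

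In darkness lincomycin lowered the transcripts of 4 measured nuclear photosynthesis genes and raised those of 3 genes of ribosome assembly. Of all probe sets, 223 were called (0.98%), 102 of them higher (0.448%) and 121 lower (0.532%). Their median change was 2.33-fold among the higher and 2.31-fold among the lower, and 171 changed at least 2-fold. The median of all probe sets was -0.01. Exactly 1 gene was listed for 52 of the higher and 46 of the lower calls. By annotation all were nuclear except the plastid gene rps14 and the mitochondrial gene ccb452. Those counted as nuclear include AT2G07751 and AT2G07708, from a nuclear region that holds a copy of the mitochondrial genome. Without replicate 1 of the dark group all 223 kept their direction. That was fixed in advance, because for all 223 both lincomycin arrays lay on the same side of both dark arrays.

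The share of called probe sets that were higher depended on how arrays were scaled. It was 45.7% as deposited, 67.7% (231 of 341) once each array was shifted to the same median and 60.6% (143 of 236) after a further quantile normalization. With dark replicate 1 left out it was 27.1% (80 of 295).

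The number of calls also depended on single arrays. With dark replicate 2 left out it rose to 1950, and with 1 of the red arrays left out to 405. With 1 of the 4 lincomycin arrays left out it was 0. Unadjusted p under 0.05 then belonged to 2268 and 2222 probe sets (dark lincomycin replicates 1 and 2 left out) or to 3344 (each red lincomycin array), against 4110 with all arrays. The 4 arrays of the comparison alone gave 0 calls in limma (3571 at an unadjusted p under 0.05). All 30 genes named by size below kept their direction in each of these fits. That was fixed in advance, since they were chosen for groups that do not overlap in darkness.

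**Figure D1:**
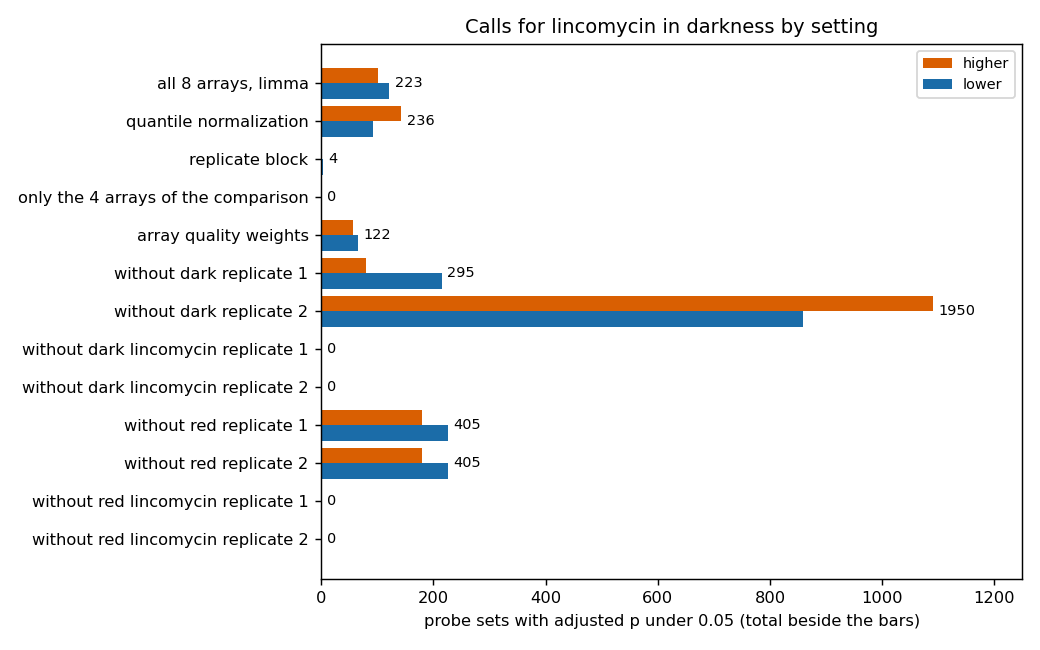
Number of probe sets called higher (orange) or lower (blue) on lincomycin in darkness under different settings, with the total beside each pair of bars. The fit over all arrays gave 223 calls, leaving out the second dark array gave 1950, and leaving out any lincomycin array gave 0.

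Photosystem genes were among the decreases. PSAE-1, a stromal subunit of photosystem I near the site where ferredoxin docks, stood at 10.30 and 10.17 on dark replicates 1 and 2 and at 8.24 and 8.21 on the dark lincomycin replicates. The lincomycin arrays thus lay close together and far below both dark arrays. PSAE-1 fell by 2.01 ± 0.28 (4.02-fold, adjusted p = 0.0406), and by 1.94 without dark replicate 1 (adjusted p = 0.0541). PSAN, the photosystem I subunit on the lumen side where plastocyanin docks, read 9.70 and 9.45 in the dark group and 8.54 and 8.47 on lincomycin. Its groups did not overlap, and it fell by 1.08 ± 0.15 (adjusted p = 0.0395; 0.0517 without dark replicate 1). Both measured photosystem I genes, of 12 on the list, were thus called lower, as were 0.532% of all probe sets.

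Photosystem II gave a mixed picture over 3 measured genes of 12. AT1G51400, which encodes a small protein of photosystem II, was at 9.88 and 9.19 in the dark group and at 7.98 and 8.03 on lincomycin. It fell by 1.53 ± 0.24 (adjusted p = 0.0484; -1.18 and 0.0517 without dark replicate 1). PSBW, a small nuclear-encoded subunit, was at -0.69 (adjusted p = 0.186). PSBY was at 0.34 (adjusted p = 0.331) and was the photosystem gene whose lincomycin arrays, at 9.18 and 9.25, lay above the dark ones, at 8.75 and 9.0. After red light PSBY was at -0.72.

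Of 21 listed antenna genes, whose products bind most of the chlorophyll, 3 were measured and 0 called in darkness. The other antenna genes may be among the unnamed probe sets, so nothing is said of them here. The 3 measured members, LHCB4.1, LHCB4.2 and LHCB4.3 of the minor antenna CP29, had a median of -0.25. LHCB4.2 was at 0.18, and at -0.24 without dark replicate 1. LHCB4.1 read 10.92 and 11 in the dark group, 10.66 and 10.77 on lincomycin in darkness, 11.42 and 11.27 in the red group and 10.59 and 10.02 on lincomycin after red light. The red lincomycin arrays were the lowest and the red arrays the highest, and the change was -0.25 in darkness and -1.04 after red light. The interaction of LHCB4.1 did not pass over all probe sets, as none did.

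In carbon fixation PRK, the phosphoribulokinase that makes the acceptor for Rubisco, was the 1 called gene of 3 measured. Of all probe sets, 0.532% were called lower. PRK is described first. Its levels were 10.14 and 10.12 in the dark group against 8.79 and 8.61 on lincomycin. The dark replicates were nearly equal, and PRK fell by 1.43 ± 0.22 (2.69-fold, adjusted p = 0.0455; -1.42 and 0.0590 without dark replicate 1). SBPASE, the sedoheptulose bisphosphatase of the same cycle, went from 9.71 and 9.37 to 8.80 and 8.53, a change of -0.87 (adjusted p = 0.104). RCA, the activase of Rubisco, was at 8.81 on dark replicate 1 and at 10.17 on replicate 2, with both lincomycin arrays in between, at 9.53 and 9.41. Its change was -0.02 with both dark arrays, -0.70 without the first and 0.66 without the second.

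Photorespiration recycles the product of Rubisco's reaction with oxygen. HPR, the peroxisomal hydroxypyruvate reductase, read 9.08 and 9.17 in the dark group and 8.35 and 8.31 on lincomycin, a change of -0.79 (adjusted p = 0.111). AT1G11860, the T protein of glycine decarboxylase, was at -0.70 and AT1G80380, the glycerate kinase, at 0.34. ATPC1, the gamma subunit of the plastid ATP synthase, went from 10.26 and 10.37 to 9.86 and 9.77, at -0.50. Of the 15 measured photosynthesis and photorespiration genes, out of 87 listed, 4 were called lower and 0 higher, beside 0.532% and 0.448% of all probe sets. Of the 15, 12 were below 0, where 51.9% of all probe sets were. Their median was -0.69 in darkness and -0.77 after red light, where all 15 were below 0. Of 7 measured housekeeping genes chosen as references, 6 were below 0, with a median of -0.23 and 0 called. Without dark replicate 1 that median was -0.41 with all 7 below 0, and without dark replicate 2 it was -0.11.

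Measured genes of the path to chlorophyll and haem had no call. All 9 measured genes of 31 were below 0, as were 51.9% of all probe sets, with a median of -0.55. Without dark replicate 1 the median was -0.78 and all 9 stayed below 0, and without dark replicate 2 it was -0.36 with 6 below 0. After red light 7 of the 9 were below 0. PORB, whose product uses light to reduce protochlorophyllide, stood at 11.31 and 11.61 in the dark group and at 10.61 and 10.67 on lincomycin. That change of -0.83 ± 0.17 had an adjusted p of 0.0736, the lowest of the list, and PORB was at -1.08 after red light. AT1G74470, the geranylgeranyl reductase that makes the phytol chain, went from 10.71 and 11.27 to 10.09 and 10.22 (-0.84). HEMB1, which joins aminolevulinate into porphobilinogen, was at -0.75. CHLM, the methyltransferase of magnesium protoporphyrin, was at -0.55. HEMA2 and GSA1, of the first steps towards aminolevulinate, were at -0.15 and -0.11. HEME1 and CHLI2, a decarboxylase and a chelatase subunit, were spread widely in the dark group, at 5.97 and 7.08 for HEME1 and 5.29 and 6.43 for CHLI2, with the lincomycin arrays near the lower value. LYC, the lycopene cyclase of carotenoid synthesis, was at 0.05, and at -0.10 without dark replicate 1.

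**Figure D2:**
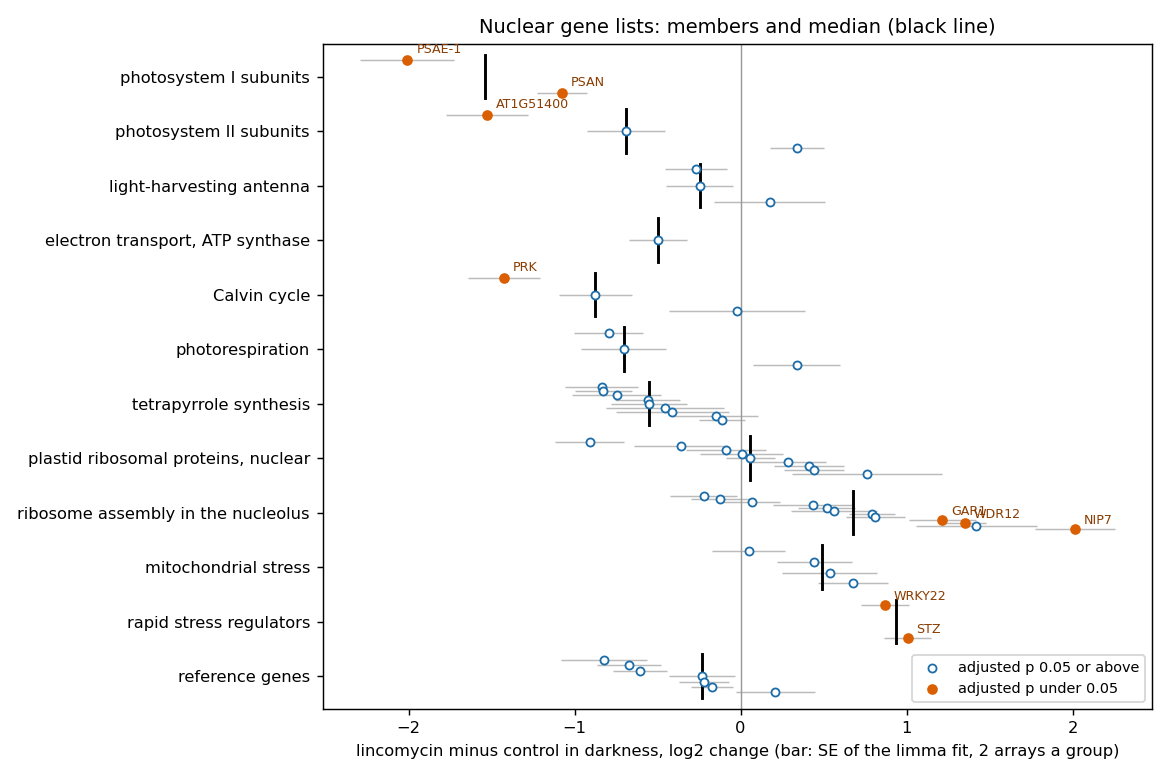
Log2 change on lincomycin in darkness (x axis, bars SE of the fit) for each measured member of 12 nuclear gene lists, with the list median as a black line and called genes in orange. Photosystem I lay lowest (median -1.54), all 9 tetrapyrrole genes lay below 0 and 10 of 12 ribosome assembly genes above it.

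Outside photosynthesis the decreases were larger still for some named genes. AT2G42220, which encodes a rhodanese-like protein, was at 8.96 and 8.63 in the dark group and at 5.86 and 5.74 on lincomycin. No other named gene fell as far: the change was -2.997 ± 0.26 (7.98-fold, adjusted p = 0.0193), and it was -2.47 after red light. AT5G48490, of the lipid transfer protein family, was lower by 2.52 on average, from 7.09 and 6.25 to 4.13 and 4.16 (adjusted p = 0.0484; 0.0691 without dark replicate 1). AT5G13770, a pentatricopeptide repeat protein of the class that handles organelle RNA, went from 7.10 and 6.43 to 4.92 and 4.37 (4.35-fold). For these 3 genes the red lincomycin arrays were low as well, and the 4 arrays with lincomycin lay below the 4 without.

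Some other called decreases were near 0 or of opposite sign after red light. The difference between the lincomycin changes did not pass in limma for any gene. Its adjusted p was 0.316 for AT1G56720 and AT5G53880 and 0.336 for UPB1. AT1G56720, a protein kinase gene, stood at 6.65 and 6.90 in the dark group but at 5.18 and 5.34 on lincomycin, and at 5.48 to 5.53 on all 4 red arrays. AT5G53880 was at 5.61 and 5.34 in the dark group, 4.21 and 3.82 on lincomycin, 3.84 and 4.11 in the red group and 4.34 and 4.39 on lincomycin after red light. For both genes the dark arrays without lincomycin were the high ones and the other 6 lay together. UPB1, a bHLH factor that sets the balance of peroxide and superoxide in the growing root, was at 9.68 and 9.06 in the dark group, 7.73 and 8.12 on lincomycin and 8.90 to 9.15 after red light. Here the dark lincomycin arrays were the low ones, the change was -1.44 ± 0.24 (adjusted p = 0.0484; 0.0550 without dark replicate 1), and it was 0.09 after red light. AT1G07700, of the thioredoxin superfamily, went from 6.94 and 6.68 to 5.39 and 5.58 in darkness, against 6.18 to 6.22 on the 4 red arrays. The changes of the remaining decreases named by size ran from -1.71 for AT4G10060 to -1.32 for AT1G21500. AT4G37550, of the formamidase family, was at -1.57, AT5G25080 at -1.48 and AT1G43020 at -1.38. After red light AT1G21500 was at -0.83, AT4G10060 at -0.77 and AT4G37550 at -0.55, against -0.28 for AT1G43020 and -0.10 for AT5G25080.

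Among the increases, ribosome assembly in the nucleolus had 3 called genes. NIP7 (AT4G15770), a homologue of a yeast factor for the large ribosomal subunit, stood at 6.86 and 7.09 in the dark group and at 9.03 and 8.95 on lincomycin. Both lincomycin arrays were far above the dark ones, an increase of 2.01 ± 0.24 (4.04-fold, adjusted p = 0.0333). WDR12 (AT5G15550), of the complex that processes the large subunit's RNA, rose from 6.11 and 6.04 to 7.49 and 7.37, by 1.35 ± 0.13 (adjusted p = 0.0293). GAR1 (AT3G03920), a core protein of the particles that make pseudouridine in ribosomal RNA, went from 8.15 and 7.83 to 9.18 and 9.22, by 1.21 ± 0.20 (adjusted p = 0.0496). These 3 calls held without dark replicate 1.

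Other members of the list leaned the same way without passing. PES (AT5G14520) and BOP1 (AT2G40360), the partners of WDR12 in mammals, were at 1.42 (adjusted p = 0.108) and 0.81 (adjusted p = 0.0793). PES had 6.17 on dark replicate 1 and 7.24 on replicate 2, both below the lincomycin arrays at 8.13 and 8.12. NOB1 (AT5G41190), the nuclease that trims the small subunit's RNA in yeast, went from 6.60 and 6.40 to 7.27 and 7.32, a change of 0.79 (adjusted p = 0.0554). NHP2 (AT5G08180) and BRX1-1 (AT3G15460) were below 0, at -0.22 and -0.12. In all, 12 of 25 listed genes were measured. Of these 3 were called higher and 0 lower, beside 0.448% and 0.532% of all probe sets, and 10 were above 0, against 48.1%. The list was drawn up with earlier results of these data known, so these counts are no independent support. The list's median was 0.68 in darkness, 0.77 without dark replicate 1 and 0.63 after red light.

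Further called genes of ribosomes and RNA were picked after their values were seen and are given as values. AT5G55140, of the ribosomal protein L30 family, rose from 6.10 and 6.46 to 7.63 and 7.77, by 1.43. AT3G57490, of the cytosolic ribosomal protein S2 family, was at 1.29 and AT2G27720, an acidic stalk protein of the large subunit, at 0.85. AT1G06560, an RNA methyltransferase of the NOL1 and NOP2 family, was at 1.24 and AT5G38290, a peptidyl-tRNA hydrolase, at 1.21. By contrast the 9 measured nuclear genes for plastid ribosomal proteins, out of 38, had 0 calls and a median of 0.06 (-0.02 and 0.29 without dark replicates 1 and 2). The lowest of them, AT5G47190 (plastid L19), was at -0.91 (adjusted p = 0.0865). AT5G15700, an RNA polymerase of plastids and mitochondria, was at 0.09. The chaperonin gene Cpn60beta2 was at 0.27 and the median of 3 plastid chaperone and protease genes was -0.12 (-0.28 and 0.41 without dark replicates 1 and 2).

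The other large increases were of varied kinds. AT5G46710, a PLATZ family zinc-binding factor, rose from 5.97 and 6.05 to 7.90 and 7.64, by 1.76 ± 0.25, and was at 1.401 after red light. AT4G38150, a pentatricopeptide repeat protein, rose from 4.73 and 4.54 to 6.23 and 6.15. AT5G66330, a leucine-rich repeat protein, was at 5.16 and 6.02 in the dark group and at 7.16 and 7.27 on lincomycin, but at 5.35 and 5.60 on lincomycin after red light, below the red group at 5.93 and 6.0. Its change was 1.62 in darkness and -0.49 after red light, the only opposite signs among the 15 increases named by size. AT3G06780, a glycine-rich protein, reached 8.01 and 8.11 on lincomycin from 5.90 and 6.39, while the red arrays were already at 7.89 and 8.72. AT2G28790, an osmotin-like protein, went from 7.37 and 7.44 to 8.68 and 8.94, and AT3G47800, of the galactose mutarotase family, from 5.68 and 5.55 to 6.94 and 7.01. The named increases AT5G41970 (1.62), AT5G52420 (1.45), AT1G18850 (1.43), AT5G05640 (1.396) and AT5G26960 (1.395) complete the 15.

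**Figure D3:**
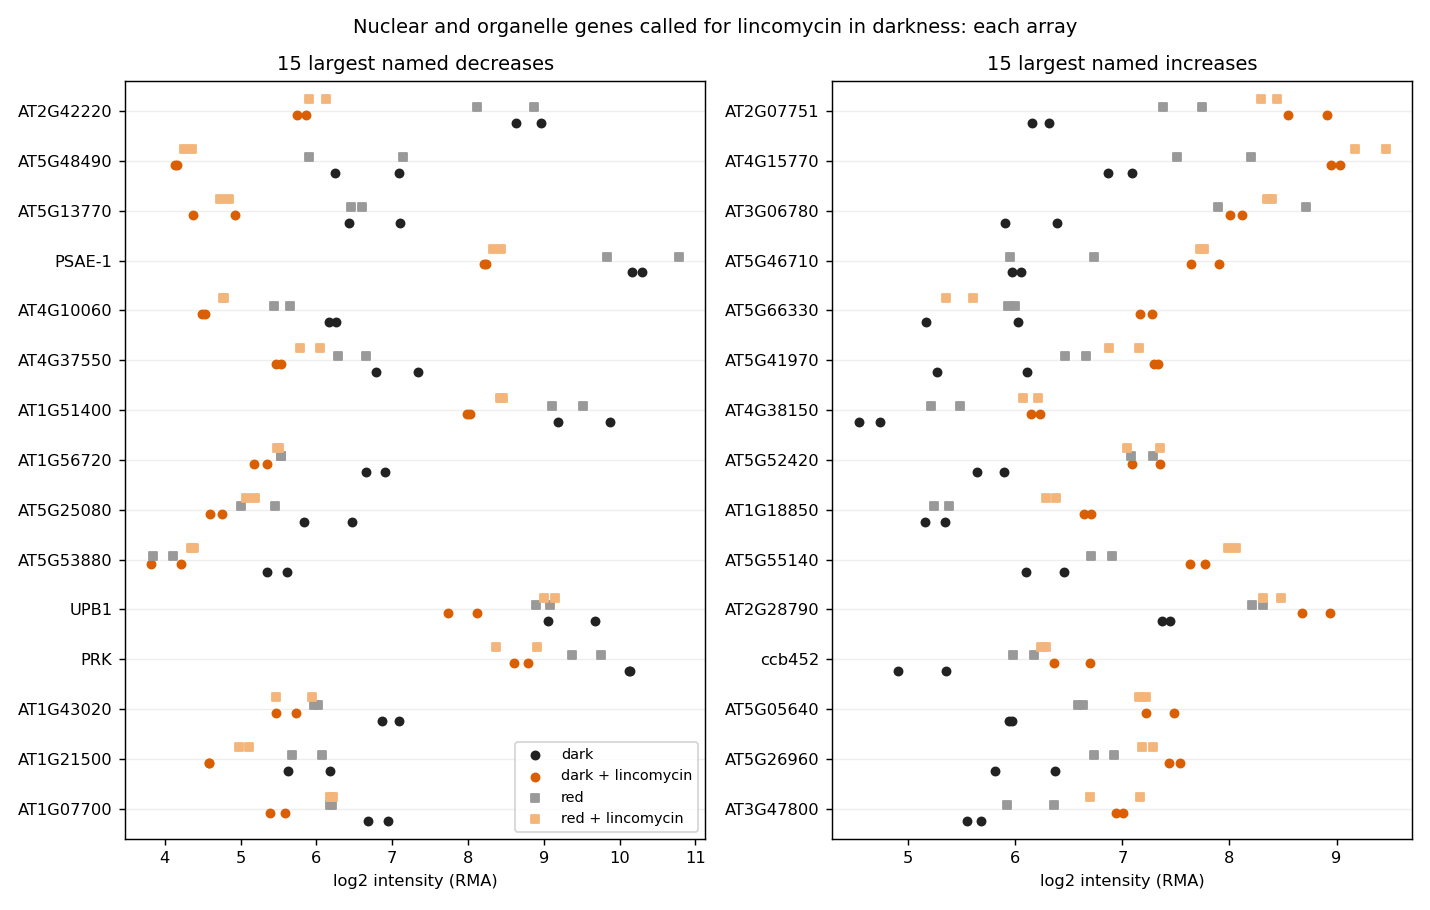
Log2 intensity on each of the 8 arrays for the 15 largest decreases (left) and 15 largest increases (right) among called probe sets with 1 listed gene, dark groups as circles and red groups as squares. PSAE-1 and AT2G42220 were low on all 4 lincomycin arrays, while AT1G56720 and AT5G53880 were highest on the dark arrays without lincomycin.

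Both measured stress regulators rose. STZ, also called ZAT10, a zinc finger repressor induced early by many stresses, went from 4.69 and 4.56 to 5.72 and 5.53, by 1.01 ± 0.14 (adjusted p = 0.0407). WRKY22, a factor of immune signalling, went from 5.54 and 5.49 to 6.27 and 6.501, by 0.87 ± 0.14 (adjusted p = 0.0499; 0.0605 without dark replicate 1). These were the 2 measured members of 21, both called higher, as were 0.448% of all probe sets. After red light they were at 0.12 and 0.27. The measured genes that answer to mitochondrial dysfunction were not called. NDB2, an external NADH dehydrogenase of mitochondria, was at 0.68 (adjusted p = 0.157), and the median of 4 measured genes was 0.49. Flavonoid and anthocyanin genes had a median of -0.02 over 6 measured members (0.21 and -0.24 without dark replicates 1 and 2), the lowest p belonging to UGT78D1 at -0.29. Of the factors and targets of growth in darkness, FHL, which carries phytochrome A into the nucleus, was at -0.76 (adjusted p = 0.148), IAA29 at -0.38 and HAT2 at 0.02. In carbohydrate metabolism, from genes picked after their values were seen, the starch branching enzyme SBE2.2 fell by 1.06 and the vacuolar sugar transporter TMT1 rose by 1.00. ICL, the isocitrate lyase with which seedlings use seed oil, was at 0.77, and at 0.22 without dark replicate 1.

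The same treatment after red light gave 6 calls (0.0264%), 1 higher (0.0044%) and 5 lower (0.022%), all of them also called in darkness and none with a listed gene. Of the 223 probe sets called in darkness, 173 (77.6%) had the same sign after red light, against 56.9% of all probe sets. An unadjusted p under 0.05 in that direction was found for 88 of them (39.5%), against 5.86% of all. The median change of the 102 higher ones was 1.22 in darkness and 0.31 after red light, and that of the 121 lower ones was -1.21 and -0.18. The probe sets were chosen for being called in darkness, so the values after red light are not on an equal footing. That choice also favours a small spread, which both comparisons share, so the share of 39.5% is raised by it. The interaction, the test of a difference between the lincomycin changes, passed for 0 probe sets in limma (0%), with 2359 at an unadjusted p under 0.05 (10.4%). Among the 223 that unadjusted count was 164 (73.5%), and the lowest adjusted p was 0.316. The interaction uses the same dark values by which the 223 were chosen. Their share is raised by that choice, and nothing is read from it. The interaction gave 609 calls without replicate 2 of the dark group. Both comparisons use 1 spread per probe set. When each was fitted in limma on its own 4 arrays, there were 0 calls in darkness and 4 after red light. Unadjusted p under 0.05 then belonged to 3571 probe sets in darkness and 1983 after red light. The larger number of calls in darkness therefore depended on the shared spread.

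The arrangement of the 8 arrays differed between probe sets. For 133 of the 223 (59.6%) the 4 lincomycin arrays did not overlap the 4 arrays without it, against 8.34% of all probe sets. For 178 (79.8%) the dark arrays without lincomycin lay outside the range of the other 6, against 19.1%. Both shares are raised by the choice of the 223, which were called because the dark groups differ, and nothing is read from them. In the comparison within darkness 48.8% of all probe sets had groups that did not overlap, so with 2 arrays a group the lack of overlap alone says little.

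**Figure D4:**
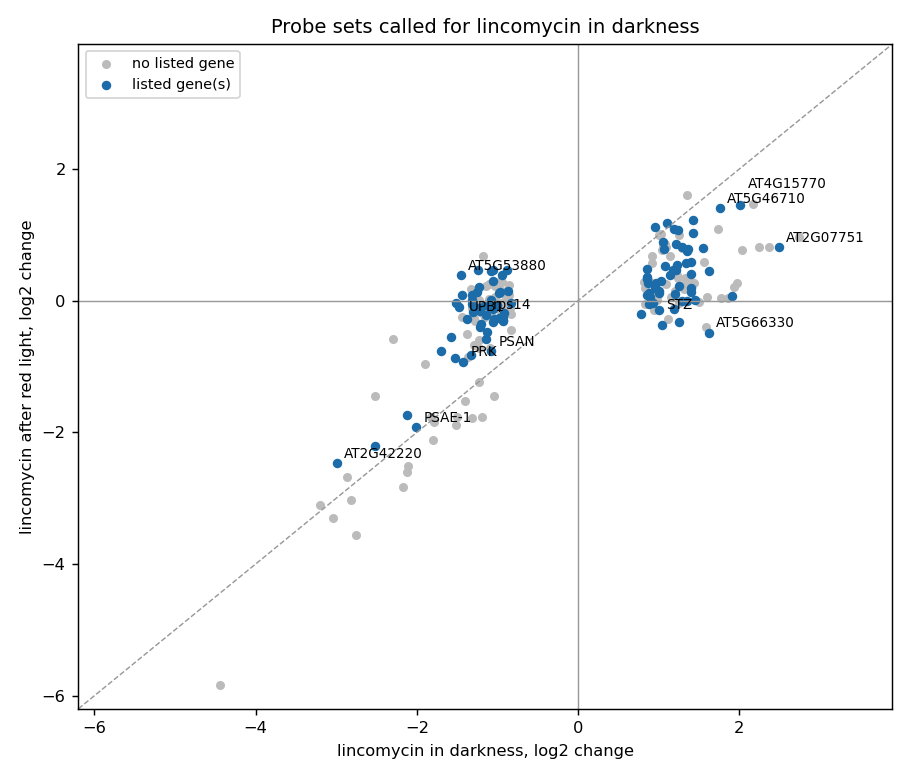
Log2 change on lincomycin in darkness (x axis) and after red light (y axis) for the 223 probe sets called in darkness, with equal changes on the dashed line. The photosystem I gene PSAE-1 lay near that line (-2.01 and -1.92), whereas AT5G53880 (-1.46 and 0.39) and AT5G66330 (1.62 and -0.49) lay far from it.

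Most of the strongest changes belonged to probe sets that are unnamed here. No gene was listed for 8 of the 10 largest called decreases and 7 of the 10 largest called increases. The ranking of named genes above leaves these out. The probe set with the largest change was at 8.40 and 10.01 in the dark group and at 4.16 and 5.36 on lincomycin, a change of -4.45, and it was at -5.84 after red light. All 4 arrays with lincomycin lay far below the others. The next largest decrease of an unnamed probe set that is given here was -3.20, and the largest increases of such probe sets were 2.74 and 2.36.

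Plastid-encoded transcripts were measured for 76 genes. Affymetrix labelling usually starts from poly(A) tails, which most plastid transcripts lack, and the labels do not detail the priming. Of the 76, 0 were called higher and 1 was called lower, beside 0.448% and 0.532% of all probe sets. That gene, rps14, a protein of the small plastid ribosomal subunit, was at 4.59 and 4.95 in the dark group and at 3.67 and 3.59 on lincomycin. It fell by 1.14 ± 0.18 (adjusted p = 0.0471, also without dark replicate 1), to values near the 20th percentile of all values, 3.51. After red light rps14 was at -0.21.

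Medians of the plastid genes differed between functions. The 29 genes for the ribosome, the RNA polymerase and other tasks outside photosynthesis had a median of 1.08 in darkness, with 25 above 0, and 0.73 after red light, with 23 above 0. The 47 photosynthesis genes had a median of 0.22 in darkness, with 29 above 0, and -0.41 after red light, with 12 above 0. Without dark replicate 1 the medians in darkness were 0.70 and 0.00. These medians describe transcripts that often share a primary RNA and an array, and no test was made of them.

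The 2 lincomycin arrays did not agree on plastid transcripts, although they agreed closely on the rest. For 72 of the 76 genes replicate 1 was above replicate 2, by a median of 0.82, whereas the standard deviation of that difference over all probe sets was 0.21. Dark replicate 2 was above dark replicate 1 for 53 genes, by a median of 0.37. For 27 genes the lincomycin arrays were both above the dark arrays and for 12 both below, against 23.1% and 25.6% of all probe sets.

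The plastid-encoded RNA polymerase had no called gene among 4, with 3 above 0 and a median of 1.29. The gene rpoA, for its alpha subunit, read 10.23 and 9.96 in the dark group and 11.55 and 11.10 on lincomycin, a change of 1.23 ± 0.23 (adjusted p = 0.0610). The catalytic subunit genes rpoC1 and rpoC2 were at 2.01 (adjusted p = 0.0896) and 1.35 (adjusted p = 0.206). For rpoC1 the arrays were at 7.48 and 7.37 against 10.21 and 8.67, with both lincomycin arrays above the dark ones but far from each other. The gene rpoB, which precedes both in 1 cluster, stood at 4.07 and 4.56 against 4.2 and 4.15, at -0.14.

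Ribosomal protein genes varied among themselves. The highest change of all plastid genes was that of rps2 at 3.08, from 4.02 and 7.01 to 8.97 and 8.23, and it was 1.59 without dark replicate 1. For rpl2 the dark arrays were at 7.79 and 10.39 and the lincomycin arrays at 11.41 and 10.51, with 1.87 over both dark arrays and 0.57 without the first. The 9 measured genes of the rpl23 cluster, a long series of ribosomal protein genes that ends in rpoA, had a median of 1.23 in darkness and 0.41 without that array. In contrast rps19, from 8.25 and 8.79 to 10.41 and 9.25, was at 1.31 and at 1.04 without it. The gene rpl33 was at -0.75.

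Photosynthesis genes of the plastid ran from psbT, the lowest of all plastid genes, to ndhD. The gene psbB, for the CP47 antenna protein of the photosystem II core, was at 6.85 and 7.58 in the dark group and at 6.05 and 5.52 on lincomycin. Its change was -1.43 ± 0.27 (adjusted p = 0.0612), -1.80 without dark replicate 1 and -1.34 after red light. Its neighbour psbT, of the same cluster, was at -1.55 (adjusted p = 0.165), psbH at -0.84 and petD, for a cytochrome b6f subunit, at -1.04, while petB of that cluster was at 0.52, and at -0.40 without dark replicate 1. The 5 genes had a median of -1.04 with both dark arrays and of -1.47, all below 0, without the first. After red light all 5 genes of the psbB cluster were below 0, with a median of -1.43. The highest photosynthesis gene, ndhD, of the plastid NADH dehydrogenase-like complex, went from 7.94 and 7.95 to 10.64 and 9.66, a change of 2.203 (adjusted p = 0.0543). The gene rbcL, for the large subunit of Rubisco, went from 6.33 and 5.93 to 8.38 and 7.02, at 1.57 (adjusted p = 0.109).

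Among complexes the medians in darkness were 0.09 for 15 photosystem II genes, -0.26 for 11 NDH genes and 0.70 for 6 ATP synthase genes. Without dark replicate 1 they were 0.06, -0.23 and 0.21, and without dark replicate 2 they were 0.21, -0.15 and 1.097. After red light photosystem II was at -0.79, with 14 of 15 genes below 0. The gene atpB showed how far 1 array could decide a value: it was at 7.71 on dark replicate 1 and at 11.28 on replicate 2, with 11.33 and 10.73 on lincomycin, so its change was 1.54 with that array and -0.25 without it. Outside photosynthesis accD, for a subunit of the enzyme that starts fatty acid synthesis, was at 1.37, clpP, for a protease subunit, at 1.35 and matK, for an intron maturase, at 1.13.

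**Figure D5:**
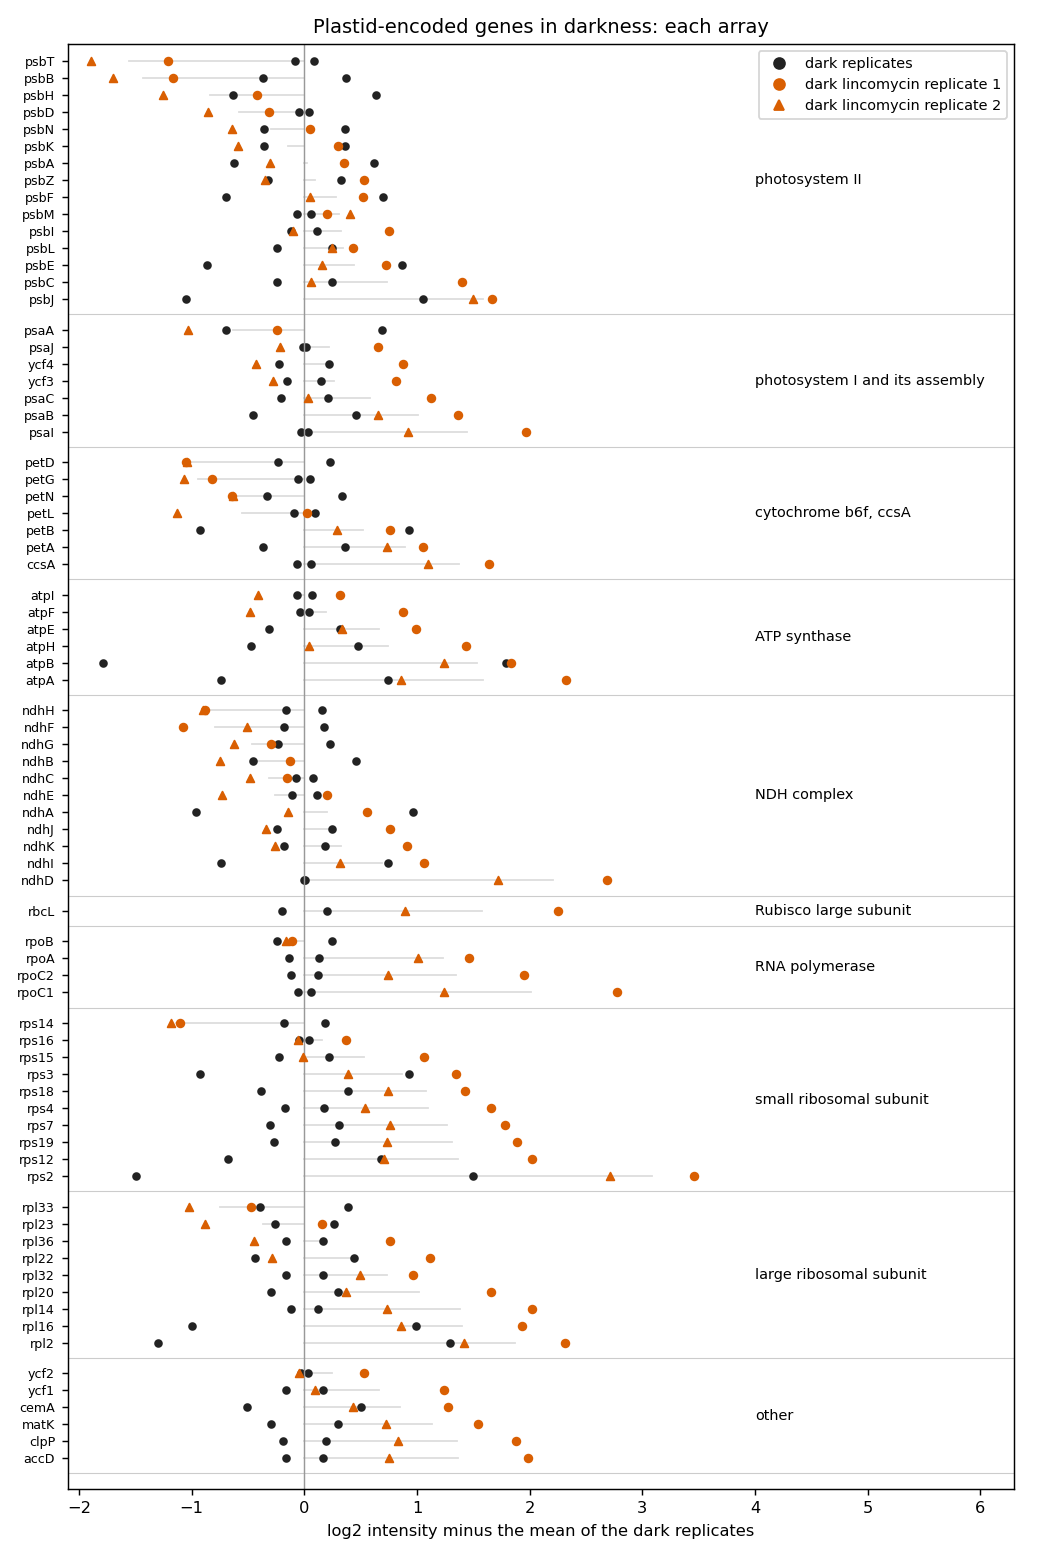
Log2 intensity of 76 plastid-encoded genes on each array in darkness, relative to the mean of the dark replicates (black), with the lincomycin replicates as orange circles and triangles. Genes of the RNA polymerase and ribosome lay mostly to the right and the psbB cluster genes psbT, psbB and psbH to the left, and replicate 1 on lincomycin lay above replicate 2 for 72 genes.

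Mitochondria also carry ribosomes of the bacterial type and genes of their own. Of 16 mitochondrial genes measured, 1 was called higher and 0 lower, 13 were above 0 and the median was 0.60; of all probe sets, 0.448% were called higher and 48.1% were above 0. The called gene, ccb452, for a protein that matures c-type cytochromes, was at 5.36 and 4.90 in the dark group and at 6.70 and 6.37 on lincomycin. It rose by 1.403 ± 0.20 (2.64-fold, adjusted p = 0.0406), by 1.63 without dark replicate 1, and was at 0.19 after red light. The lincomycin replicates differed here by a median of only 0.05 (replicate 1 minus replicate 2), unlike for plastid genes.

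Several others stood just outside the threshold. The gene nad5, a subunit of respiratory complex I, went from 5.84 and 5.27 to 6.93 and 7.07, a change of 1.45 (adjusted p = 0.0549). The gene orfX, named as an open reading frame, had the highest change, 1.76 (adjusted p = 0.0618), from 5.32 and 5.37 to 7.65 and 6.57. For both the lincomycin arrays lay above the dark ones. The cytochrome oxidase genes cox1 and cox2 were at 1.38 (adjusted p = 0.153) and 1.05 (adjusted p = 0.113). The lowest were nad2 at -0.38, ccb203 at -0.10 and nad7 at -0.04; without dark replicate 1 nad2 was at 0.14 and nad7 at 0.26. The list's median was 0.83 without that array, 0.40 without dark replicate 2 and 0.09 after red light.

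The largest increase among called probe sets with 1 listed gene was that of a nuclear locus with the name of a mitochondrial region. AT2G07751 lies among loci of chromosome 2 where a copy of the mitochondrial genome is inserted, and its probe set is one that can match several transcripts, so the nuclear and the mitochondrial copy cannot be told apart. It was at 6.31 and 6.16 in the dark group and at 8.91 and 8.54 on lincomycin, an increase of 2.49 ± 0.19 (5.63-fold, adjusted p = 0.0171), and at 0.81 after red light. AT2G07708 of the same region, picked after its value was seen, rose by 1.29 (adjusted p = 0.0499; 0.0709 without dark replicate 1) and was at -0.0041 after red light. These were the 2 called of 73 probe sets of loci named AT2G07, which had a median of 0.10 with 49 above 0. An unadjusted p under 0.05 in limma belonged to 12 higher and 5 lower ones. The 73 were taken by name alone, so loci outside the inserted copy may be among them.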

How the data were processed

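Deposited were linear intensities, 1 for each probe set on each array, summarised by the authors with RMA (per the submitters' processing notes); the software version is not given in the sources used here. After log2, 64 of 22810 probe sets were left out as controls. Group means of all 8 arrays were fitted with limma 3.58.1 (lmFit, eBayes; 4 residual and 3.19 prior degrees of freedom) in R 4.3.3, two-sided, with Benjamini-Hochberg adjustment. Depth has no meaning for arrays: their number limits the precision. Genes came from the supplied annotation, names from RefSeq TAIR10.1. In lists, the probe set with the highest mean stood for a gene that had several. Named were up to 15 increases and 15 decreases by size among called probe sets with 1 gene and no overlap between groups, called list members or otherwise the one with the lowest p, and the 3 highest and 3 lowest genes of each organelle; other names were chosen after their values were seen. Members and lists were chosen with earlier results of these data known. The procedure was tested on simulated data. Alternatives were other scalings, a filter and a floor on dim values, trend with robust, a replicate block, the 4 arrays alone, array weights, a 2-fold requirement and leaving out each array.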

Additional observations from a re-analysis of the deposited data

How the results depend on the processing

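The 223 calls for lincomycin in darkness became 341 with shifted medians, 96 with low values raised to the 20th percentile, 108 with trend and robust, 122 with array weights, 0 with the 4 arrays alone and 4 with a replicate block. They were 236 after quantile normalization, 162 without the dimmest 30% and 171 with a 2-fold requirement. Leaving out 1 array gave 0 to 1950. The replicate numbers share only a number: deviations of same-numbered arrays correlated at -0.33 to 0.44. With the 4 arrays of each comparison alone, lincomycin after red light gave 4 calls, all lower, against 0 in darkness. The order of 223 and 6 calls was thus not kept in that setting. The 6 calls after red light became 18 with shifted medians, 1 after quantile normalization, 26 without the dimmest 30%, 1 with raised low values, 21 with trend and robust, 1 with the replicate block and 31 with array weights, with 0 to 32 without 1 array. The interaction gave 0 calls in limma under every setting listed (for it the 4 arrays alone cannot be used) except for 609 without replicate 2 of the dark group.

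All 30 genes named by size kept their direction in every setting, though leaving out arrays could not turn genes chosen for lack of overlap. Their calls held for 28 with shifted medians, 24 after quantile normalization, 30 without the dimmest 30%, 12 with raised low values, 24 with trend and robust, 26 with array weights, 1 with the replicate block and 0 with the 4 arrays alone. They held for 20 and 30 without dark replicates 1 and 2, 27 without either red array and 0 without any lincomycin array. Of 117 probe sets run under these settings, those of the named genes among them, the sign turned for 13. Over the fits that left out 1 array the change of LYC ran from -0.10 to 0.21, nad2 from -0.90 to 0.14, nad7 from -0.34 to 0.26, RCA from -0.70 to 0.66, LHCB4.2 from -0.24 to 0.59, HEMA2 from -0.56 to 0.26, HEME1 from -0.97 to 0.15, CHLI2 from -1.02 to 0.11, AT3G15460 from -0.30 to 0.056, HAT2 from -0.041 to 0.075, petB from -0.40 to 1.45, atpB from -0.25 to 3.32 and rpoB from -0.38 to 0.11. With shifted medians nad7 was at 0.040 and RCA at 0.061, and after quantile normalization RCA was at 0.0020. Signals near the lower end of the intensity scale limit rps14 and the dim mitochondrial genes.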
